A study of Mus musculus with 12 samples.

Results

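The comparison described here was the difference between the responses of 2 mouse embryonic stem cell lines to 2i medium, the change from serum to 2i in 3B3-3l cells minus the same change in J1 cells. All 12 of the 12 RNA-seq libraries of the series entered it, 3 per group, so the members were samples and every gene was read across all of them. J1 is a male wild-type line. 3B3-3l, which the study also calls 3B3L, lacks Dnmt3a and Dnmt3b on both alleles and carries Dnmt3b and Dnmt3l transgenes driven by the CAG promoter in either medium. The 4 groups were J1 in serum with LIF, J1 in 2i with LIF, 3B3-3l in serum with LIF and 3B3-3l in 2i with LIF. LIF was shared by all groups, and 2i cultures had been kept in N2B27 with the MEK inhibitor PD0325901 and the GSK3 inhibitor CHIR99021. Each genotype was represented by 1 derived line, and in serum J1 was grown on inactivated feeder cells, removed by replating, while 3B3-3l was grown on gelatin, so the line and the culture surface cannot be told apart in serum. The replicates are described as biological, without saying what separated them.

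In serum, ERK signalling downstream of FGF primes embryonic stem cells for differentiation. PD0325901 blocks that pathway at MEK, and CHIR99021 inhibits GSK3 and so mimics a Wnt signal, and together they hold cells in a naive state like that of the inner cell mass. Cells moved to 2i also lose most of their DNA methylation, with a fall of the de novo methyltransferases Dnmt3a and Dnmt3b and of their cofactor Dnmt3l. Many promoters of germline genes and the control regions of imprinted genes depend on DNA methylation for silencing. In 3B3-3l the transgenes supply Dnmt3b and Dnmt3l from another promoter, so the difference between the lines asks which parts of the response to 2i take another course in this line.

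The libraries held 37050133 to 44514956 estimated counts. Levels are given as CPM, counts relative to the size of each library with scaling between libraries, changes as log2 ratios of these levels with a standard error (SE), and a gene is called where its edgeR quasi-likelihood p, adjusted over all 17885 genes tested, was under 0.05. The transcripts of the transgenes checked the labels. Dnmt3b stood at 427, 408 and 404 CPM in J1 in serum and at 44.1, 41 and 47.2 CPM in J1 in 2i, but at 927, 879.9 and 866 CPM and 914, 936 and 935 CPM in 3B3-3l in serum and 2i. Dnmt3l stood at 285, 285 and 285 CPM and 55.5, 47.9 and 55.1 CPM in J1 in serum and 2i, and at 511, 496 and 448 CPM and 285, 290.0 and 294 CPM in 3B3-3l. The transgenic line had more of both transcripts than J1 in the same medium, with no overlap, although its Dnmt3l changed by -0.74 ± 0.059 from serum to 2i against -2.43 ± 0.063 in J1. These counts do not separate transgene from endogenous transcripts. The 10 mESC markers summed to 4658 to 5928 CPM across the 12 libraries. Of 26 fibroblast markers 18 could be tested, and their sum was 184 to 196 CPM in J1 serum, 49.6 to 51.1 in J1 2i, 218 to 251 in 3B3-3l serum and 37.1 to 38.7 in 3B3-3l 2i. It was therefore lower in 2i in both lines, and 3 of the 18 were called higher and 6 lower in the difference, with a median of -0.72. Dcn, Lum and Postn, defining markers of fibroblasts, reached at most 10, 1 and 7 counts in any library. The part of feeder cells in the results was not tested.

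The 2i response differed between the lines for 6200 of the 17885 genes, or 34.7%. The difference was positive, meaning a more positive change from serum to 2i in 3B3-3l than in J1, for 2923 genes (16.3%) and negative for 3277 (18.3%). Over all genes its median was -0.03 with a median SE of 0.13. A difference that was called and at least 2-fold was found for 1470 genes, or 8.22%, of which 530 were positive and 940 negative. The response itself was of like extent in both lines, with 11820 genes (66.1%) called between media in J1 and 11688 (65.4%) in 3B3-3l.

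The 1470 genes were sorted by what the change in 3B3-3l was relative to that in J1. A response was termed reversed where both lines were called with opposite signs and log2 changes of at least 0.5 in size. It was termed blocked where J1 was called with at least a 2-fold change and the log2 change of 3B3-3l was at most 0.25 of it in size, and gained where the roles of the lines were exchanged. Where the changes had the same sign and the smaller was over 0.25 of the larger, the response was termed reduced or enlarged in 3B3-3l. These classes took in 1200 genes and the remaining 270 met no class. A fall that was larger in 3B3-3l made up the largest class with 361 genes, followed by 172 gained falls, 126 blocked falls, 118 reduced falls, 114 blocked rises, 78 reversed rises, 71 gained rises, 67 enlarged rises, 49 reduced rises and 44 reversed falls. Rise and fall name the direction in J1 for blocked, reversed and reduced responses, and the direction in 3B3-3l for gained and enlarged ones. Since the difference and the 2i effects of both lines defined the classes, the medians that follow describe the classes and test nothing. Blocked rises had a median log2 change of 1.61 in J1 and 0.08 in 3B3-3l, and blocked falls of -1.73 and -0.07. For reversed rises the medians were 0.79 and -0.95, and for reversed falls -0.86 and 0.93. Gained falls went from -0.13 in J1 to -1.69 in 3B3-3l, and enlarged falls from -1.43 to -2.97. Many members were weakly expressed. Only 43 of the 114 blocked rises, 24 of the 126 blocked falls and 19 of the 44 reversed falls reached 5 CPM in the highest group, while 175 of the 361 enlarged falls did.

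**Figure D1:**
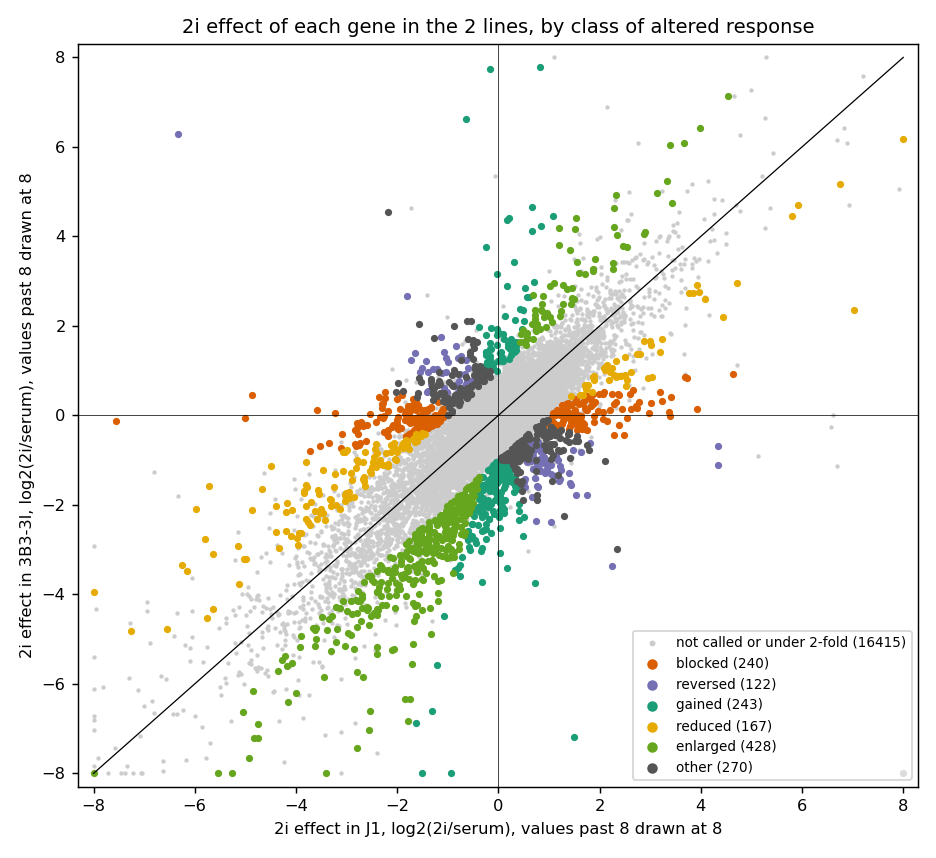
Each point is a gene, with its log2 change from serum to 2i in J1 on the horizontal axis and in 3B3-3l on the vertical axis, coloured by class, with genes past 8 drawn at 8. Points on the diagonal changed alike in both lines, and the 361 enlarged falls lie below it at the lower left while the 122 reversed responses lie in the upper left and lower right fields.

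Chromosome 6 stood apart as a whole. Of its 769 tested genes 59.8% were called in the difference, 36 positive and 424 negative, and their median difference was -0.44. The 18 other chromosomes apart from chromosome 8 had medians from -0.10 to 0.04, with 29.0% to 38.9% of their genes called. At the lower end were X, with 68 positive and 135 negative calls, and chromosome 1, with 105 and 205. At the upper end was chromosome 11, with 293 and 219. Relative to the mean of J1 serum, the median log2 level of chromosome 6 was 0.43 to 0.46 in the 3 J1 libraries in 2i and -0.04 to 0.01 in the 9 others. The shift was alike along the chromosome, with a median J1 2i effect of 0.47, 0.52 and 0.53 in its first, middle and last stretch of 146 genes each. Chromosome 8 had a median difference of 0.23, with 347 positive and 85 negative calls among 851 genes, and its level was -0.17 to -0.11 in 3B3-3l in serum. Chromosome 11 was lower in 3B3-3l in both media, at -0.33 to -0.23, which left a median difference of 0.04. Chromosome 6 held 4.3% of the genes tested but 12.9% of those called lower, including 94 of its 106 genes with a 2-fold difference. Copy number was not measured, and its part in these shifts was not tested. With the median level of each chromosome in each library taken out, an alternative chosen after the data had been seen, 5791 genes were called (2673 positive and 3118 negative) and chromosome 6 had a median of -0.03 with 154 negative calls. Genes on chromosomes 6 and 8 are named as such below with their value on that scale.

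**Figure D2:**
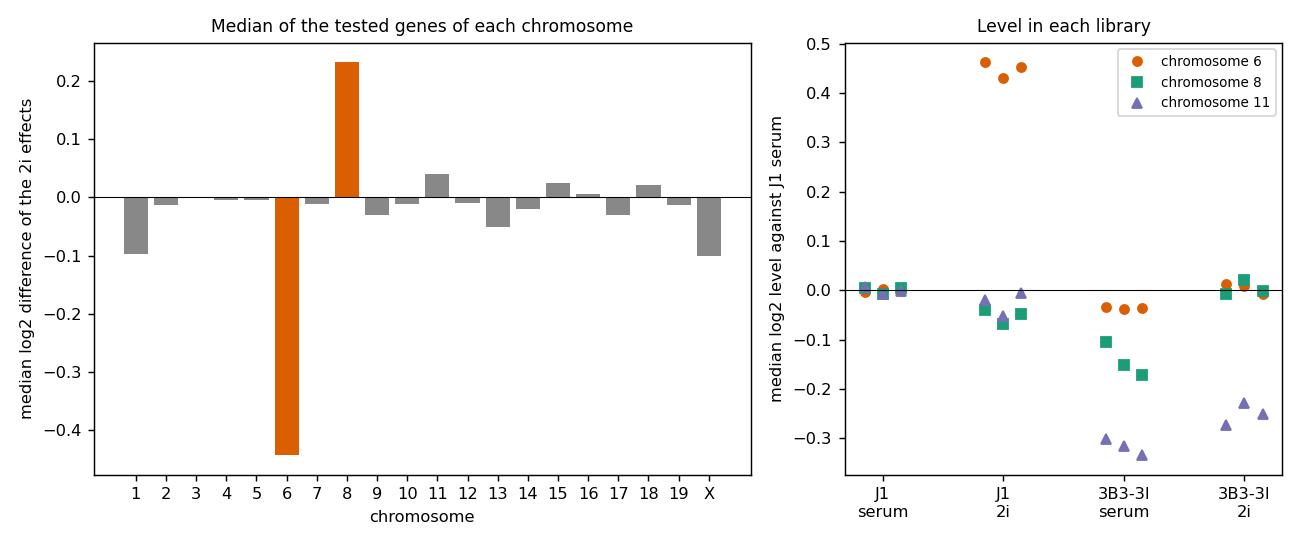
Left, bars give the median log2 difference of the 2i effects of the tested genes of each chromosome. Right, points give the median log2 level of chromosomes 6, 8 and 11 in each of the 12 libraries against the mean of J1 serum, and chromosome 6 is raised in the 3 J1 libraries in 2i, at 0.43 to 0.46.

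Blocked rises, which 3B3-3l lacked or made at 0.25 of the J1 log2 change or less, lay on chromosome 6 in 18 of 114 cases. For 3 genes outside it that were among the largest differences at 5 CPM or more, the window from 250 bases before to 50 bases after a RefSeq start is shown. CpG dinucleotides are in capitals because methylation in cells acts on them. The windows are on the plus strand of GRCm38.p6, at chr1:74374953-74375252 for Slc11a1, chr5:31108069-31108368 for Dnajc5g and chr2:84798578-84798877 for Ube2l6. For Slc11a1 and Dnajc5g the gene span begins at chr1:74375014 and chr5:31108293, so their windows are not set by the start of that span.
Slc11a1: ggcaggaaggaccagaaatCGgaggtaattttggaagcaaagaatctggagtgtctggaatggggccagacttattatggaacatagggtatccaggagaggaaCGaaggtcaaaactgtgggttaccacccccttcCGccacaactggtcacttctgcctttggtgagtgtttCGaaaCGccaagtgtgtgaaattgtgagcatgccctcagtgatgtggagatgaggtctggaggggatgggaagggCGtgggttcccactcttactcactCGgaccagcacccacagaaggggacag
Dnajc5g: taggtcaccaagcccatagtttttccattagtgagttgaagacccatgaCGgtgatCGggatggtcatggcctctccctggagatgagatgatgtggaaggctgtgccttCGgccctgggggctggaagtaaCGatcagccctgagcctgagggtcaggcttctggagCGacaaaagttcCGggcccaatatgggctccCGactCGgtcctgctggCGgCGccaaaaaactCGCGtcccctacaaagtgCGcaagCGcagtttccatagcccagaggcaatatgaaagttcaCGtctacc
Ube2l6: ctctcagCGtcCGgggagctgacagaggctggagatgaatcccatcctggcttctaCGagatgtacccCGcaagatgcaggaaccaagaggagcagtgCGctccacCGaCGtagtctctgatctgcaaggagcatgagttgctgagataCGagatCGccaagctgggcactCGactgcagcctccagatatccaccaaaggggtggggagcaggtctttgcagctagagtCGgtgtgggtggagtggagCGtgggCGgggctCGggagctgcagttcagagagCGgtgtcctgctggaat
The windows held 7, 15 and 15 CpG, each fewer than the median of 21 over the windows of all tested genes. That median was 16 for genes with a 2-fold 2i effect in either line and 12 for blocked rises.

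Slc11a1, a divalent metal transporter of macrophage phagosomes, was measured at 2.65, 2.63 and 2.95 CPM in J1 in serum and 23.9, 24.1 and 29 CPM in 2i. In 3B3-3l it reached 7.96, 7.67 and 7.8 CPM in serum and 10.5, 9.41 and 9.54 CPM in 2i. The J1 libraries in 2i were above all others, the 3B3-3l libraries lay between the media of J1, and no groups overlapped. Its log2 change was 3.23 ± 0.095 in J1 and 0.33 ± 0.087 in 3B3-3l, a difference of -2.90 ± 0.13 (SE, edgeR adjusted p = 1.42e-09). Dnajc5g, of the DnaJ co-chaperone family, was at 1.24, 1.47 and 1.6 CPM in J1 in serum and 9.52, 9.02 and 8.56 CPM in 2i and at 1.15, 1.08 and 1.18 CPM in 3B3-3l in serum and 1.39, 1.81 and 1.88 CPM in 2i. All 3 J1 libraries in 2i stood above the other 9, 3B3-3l rose by 0.58 ± 0.15 against 2.65 ± 0.13 in J1, and the difference was -2.08 ± 0.20 (SE, edgeR adjusted p = 1.66e-06). Ube2l6, the conjugating enzyme for the ubiquitin-like protein ISG15, was at 1.72, 1.81 and 1.9 CPM in J1 in serum and 5.99, 6.31 and 5.9 CPM in 2i and at 1.91, 1.48 and 1.85 CPM in 3B3-3l in serum and 1.54, 1.55 and 1.08 CPM in 2i. In 3B3-3l the media overlapped, in serum the lines overlapped, and the difference was -2.07 ± 0.20 (SE, edgeR adjusted p = 2.23e-06).

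A blocked rise was not always a low level. Trp53cor1, the long noncoding RNA also known as lincRNA-p21, was at 0.884, 1.16 and 0.894 CPM in J1 in serum and 5.79, 4.91 and 3.63 CPM in 2i, but already at 6.19, 6.98 and 6.62 CPM in 3B3-3l in serum and at 4.9, 5.33 and 4.43 CPM in 2i. The lines overlapped in 2i and were apart in serum, where 3B3-3l was higher, and the difference of the 2i effects was -2.71 ± 0.23 (SE, edgeR adjusted p = 4.09e-07). The noncoding transcript Gt(ROSA)26Sor, on chromosome 6, showed the other form, with 1.67, 1.4 and 1.3 CPM in J1 in serum and 20.3, 21.6 and 25 CPM in 2i and 2.06, 1.48 and 1.49 CPM in 3B3-3l in serum and 1.68, 1.92 and 1.91 CPM in 2i. Only the J1 libraries in 2i were raised, and the difference of -3.79 ± 0.21 (SE, edgeR adjusted p = 6.77e-09) was -3.39 with the chromosome level taken out.

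Of the 126 blocked falls, which 3B3-3l lacked or made at 0.25 of the J1 log2 change or less, 4 were on chromosome 6, and Dnmt3b itself, expressed from its transgene, had the largest difference at 5 CPM or more, 3.29 ± 0.076. Cd109 lies at chr9:78615546-78716260 and Epas1 at chr17:86753864-86833410 on GRCm38.p6. Cd109, a GPI-anchored protein that binds TGF-beta, was at 10.8, 11.6 and 11.2 CPM in J1 in serum and 1.8, 1.88 and 1.8 CPM in 2i, and at 11.2, 10.8 and 12.2 CPM in 3B3-3l in serum and 7.86, 7.53 and 7.5 CPM in 2i. In serum the lines overlapped, in 2i 3B3-3l stayed above every J1 library, and its log2 change of -0.58 ± 0.071 against -2.61 ± 0.085 in J1 gave a difference of 2.04 ± 0.11 (SE, edgeR adjusted p = 6.27e-09). Epas1, which encodes the hypoxia-inducible factor HIF-2α, was at 30.1, 26.1 and 27.7 CPM in J1 in serum and 9.07, 9.73 and 8.29 CPM in 2i and at 12.4, 12.5 and 12.3 CPM in 3B3-3l in serum and 15.4, 16.3 and 15.8 CPM in 2i. The order of the lines was exchanged between media, with J1 higher in serum and 3B3-3l higher in 2i and no overlap in either, and the difference was 1.98 ± 0.10 (SE, edgeR adjusted p = 2.92e-09). 

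Soga3 is shown with its window because its low count of CpG, 8, is the median count of the blocked falls. The window lies on the plus strand of GRCm38.p6 at chr10:29143746-29144045, with CpG in capitals.
Soga3: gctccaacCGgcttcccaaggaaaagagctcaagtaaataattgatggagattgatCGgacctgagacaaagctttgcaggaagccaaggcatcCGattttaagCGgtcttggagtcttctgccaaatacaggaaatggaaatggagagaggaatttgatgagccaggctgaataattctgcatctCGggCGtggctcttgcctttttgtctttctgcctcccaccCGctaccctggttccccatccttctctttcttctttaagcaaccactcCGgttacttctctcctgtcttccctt
Soga3 was at 5.28, 5.93 and 5.53 CPM in J1 in serum and 1.32, 1.01 and 1.32 CPM in 2i and at 7.1, 6.14 and 5.95 CPM in 3B3-3l in serum and 4.59, 5.19 and 4.51 CPM in 2i. Both lines fell, and 3B3-3l in 2i lay between J1 in 2i and all serum libraries. The log2 change was -2.20 ± 0.13 in J1 and -0.42 ± 0.11 in 3B3-3l, and the difference was 1.77 ± 0.17 (SE, edgeR adjusted p = 1.56e-06). SCARNA16, a small Cajal body RNA that poly(A) selection would not be meant to capture and whose symbol is shared by several gene IDs, had 17.8, 21.9 and 19.8 CPM in J1 in serum and 7.66, 4.13 and 6.54 CPM in 2i and 10.02, 5.71 and 4.48 CPM in 3B3-3l in serum and 10.1, 7.51 and 5.72 CPM in 2i. Its 3B3-3l media overlapped and its difference was 1.91 ± 0.36.

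Reversed responses were those in which both lines changed, in opposite directions. On chromosome 6, which held 4.3% of the genes tested, lay 12 of the 78 reversed rises and 0 of the 44 reversed falls. Of the genes given in full, Sfi1 lies at chr11:3131850-3203347, Rab6b at chr9:103111667-103185276, Slc1a1 at chr19:28835135-28913960 and Tex15 at chr8:33516689-33592503 on GRCm38.p6. Sfi1, which encodes a centrin-binding protein of the centrosome, stood at 29, 27.7 and 28 CPM in J1 in serum and 85.5, 75.7 and 67 CPM in 2i, and at 36.6, 37.4 and 38.7 CPM in 3B3-3l in serum and 12.1, 12.7 and 13.5 CPM in 2i. The J1 libraries in 2i were the highest and the 3B3-3l libraries in 2i the lowest of all 12, with a log2 change of 1.43 ± 0.074 in J1 and -1.56 ± 0.079 in 3B3-3l and a difference of -2.99 ± 0.11 (SE, edgeR adjusted p = 1.21e-10). Rab6b, a GTPase of Golgi traffic, was at 5.28, 4.85 and 6.12 CPM in J1 in serum and 12.4, 12.1 and 10.9 CPM in 2i and at 12.4, 11.8 and 12.6 CPM in 3B3-3l in serum and 6.59, 6.35 and 6.73 CPM in 2i. The lines had exchanged their levels, J1 in 2i being near 3B3-3l in serum, and the difference was -2.03 ± 0.12 (SE, edgeR adjusted p = 1.74e-08). Peg12, an imprinted gene of the GSK3-binding FRAT family, changed by 0.91 ± 0.12 in J1 and -1.28 ± 0.14 in 3B3-3l. Pygl, the liver form of glycogen phosphorylase, changed by 0.96 ± 0.17 and -1.19 ± 0.19. For both genes the lines overlapped in serum and were apart in 2i. Pianp lies on chromosome 6, and its changes of 1.000 ± 0.054 and -1.10 ± 0.057 gave a difference of -2.10 ± 0.078, or -1.69 with the chromosome level taken out.

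In the other direction, Slc1a1, a neuronal and epithelial glutamate transporter, was at 6.31, 5.98 and 6.96 CPM in J1 in serum and 2.67, 2.66 and 1.76 CPM in 2i and at 6.11, 6.36 and 5.97 CPM in 3B3-3l in serum and 15, 14.2 and 13.7 CPM in 2i. The lines overlapped in serum and the 3B3-3l libraries in 2i were the highest of all, with changes of -1.43 ± 0.12 in J1 and 1.22 ± 0.11 in 3B3-3l and a difference of 2.65 ± 0.16 (SE, edgeR adjusted p = 2.39e-08). Tex15, a germ cell gene needed for meiosis and for transposon silencing in the male germ line, was at 7.57, 9.09 and 8.08 CPM in J1 in serum and 2.89, 3.88 and 3 CPM in 2i and at 11.9, 14.7 and 15.9 CPM in 3B3-3l in serum and 24.4, 21.1 and 23.4 CPM in 2i. J1 fell and 3B3-3l rose, all groups were apart, and the difference was 2.03 ± 0.17 (SE, edgeR adjusted p = 4.29e-07). With the level of its chromosome, 8, taken out it was 1.83. Fbp2, a fructose bisphosphatase, changed by -0.83 ± 0.16 in J1 and 1.56 ± 0.13 in 3B3-3l. P2rx7, an ATP-gated ion channel, changed by -0.99 ± 0.13 and 1.20 ± 0.11. Susd1 changed by -1.03 ± 0.10 and 1.28 ± 0.090, a difference of 2.31 ± 0.14 that was 1.45 when estimated transcript lengths were used as offsets. For these 3 genes the lines overlapped in serum and 3B3-3l was above J1 in 2i.

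Changes gained in 3B3-3l were mostly falls, 172 against 71 rises, and none of the 71 rises lay on chromosome 6 while 17 of the falls did. Dglucy, a mitochondrial D-glutamate cyclase, is shown with its window on the plus strand of GRCm38.p6, chr12:100778807-100779106, since it held the largest gained rise at 5 CPM or more and only 3 CpG, again in capitals.
Dglucy: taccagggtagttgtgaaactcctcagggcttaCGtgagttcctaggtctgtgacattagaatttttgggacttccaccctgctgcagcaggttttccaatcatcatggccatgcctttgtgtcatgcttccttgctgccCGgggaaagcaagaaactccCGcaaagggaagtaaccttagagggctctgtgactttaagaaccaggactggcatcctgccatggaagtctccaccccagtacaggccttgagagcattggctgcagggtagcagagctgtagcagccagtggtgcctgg
It was at 5.3, 4.39 and 4.66 CPM in J1 in serum and 4.78, 4.45 and 4.88 CPM in 2i and at 4.23, 3.82 and 3.91 CPM in 3B3-3l in serum and 13.9, 16.2 and 15.6 CPM in 2i. The media overlapped in J1, the 3B3-3l libraries in 2i were the highest, and the difference was 1.96 ± 0.13 (SE, edgeR adjusted p = 5.54e-08). Notum, a secreted deacylase that inactivates Wnt proteins and is itself induced by Wnt signals, was at 32.7, 32.7 and 29.8 CPM in J1 in serum and 34.7, 36.2 and 42.2 CPM in 2i and at 11, 9.56 and 9.19 CPM in 3B3-3l in serum and 30.7, 34.2 and 31.5 CPM in 2i. Here the rise in 3B3-3l brought it from below J1 in serum close to the J1 level in 2i, and the difference was 1.45 ± 0.12 (SE, edgeR adjusted p = 3.02e-07). Mep1b, a subunit of the metalloprotease meprin, followed the same course, with a change of 1.82 ± 0.10 in 3B3-3l against 0.09 ± 0.089 in J1, and the lines overlapped in 2i. Ddr2, a receptor tyrosine kinase for collagen, rose by 1.62 ± 0.11 in 3B3-3l and was at -0.16 ± 0.12 in J1, and Scarf1, a scavenger receptor, rose by 1.28 ± 0.11 in 3B3-3l and was at -0.18 ± 0.11 in J1.

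Usp26 lies at chrX:51752667-51801233 and Ezhip at chrX:6081218-6083420 on GRCm38.p6. Among the gained falls, Usp26, an X-linked deubiquitinase gene expressed in the testis, was at 21, 21.5 and 22.7 CPM in J1 in serum and 11.1, 11.2 and 8.73 CPM in 2i and at 52.2, 56.1 and 59.6 CPM in 3B3-3l in serum and 2.64, 2.32 and 2.53 CPM in 2i. It was highest in 3B3-3l in serum and lowest in 3B3-3l in 2i. J1 fell too, with a log2 change of -1.07 ± 0.086, less than 0.25 of the log2 change of -4.49 ± 0.10 in 3B3-3l, and the difference was -3.42 ± 0.13 (SE, edgeR adjusted p = 2.55e-10). Ezhip, an X-linked inhibitor of the Polycomb methyltransferase PRC2, was at 2.46, 2.41 and 2.71 CPM in J1 in serum and 2.51, 2.27 and 2.98 CPM in 2i and at 5.4, 6.38 and 5.67 CPM in 3B3-3l in serum and 1.27, 0.857 and 0.902 CPM in 2i. Its media overlapped in J1, and the difference was -2.55 ± 0.21 (SE, edgeR adjusted p = 4.09e-07).

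The gained falls Bnip3, Loxl2 and Ndufa4l2 are known to be induced by hypoxia. The window of Bnip3, which encodes a mitochondrial receptor for mitophagy, lies on the minus strand of GRCm38.p6 at chr7:138909457-138909756. The capitals mark CACGTG, which holds ACGTG, the core letters of the hypoxia response element, on both strands.
Bnip3: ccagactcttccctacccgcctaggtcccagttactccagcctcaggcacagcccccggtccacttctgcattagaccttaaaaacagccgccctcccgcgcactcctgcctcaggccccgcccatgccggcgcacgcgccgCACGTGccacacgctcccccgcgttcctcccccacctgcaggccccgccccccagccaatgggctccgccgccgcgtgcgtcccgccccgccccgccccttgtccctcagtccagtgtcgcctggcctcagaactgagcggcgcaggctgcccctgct
Bnip3 was at 118, 102 and 132 CPM in J1 in serum and 52.3, 65.4 and 77.8 CPM in 2i, and at 135, 148 and 161 CPM in 3B3-3l in serum and 11.3, 10.6 and 17.5 CPM in 2i. All groups were apart, with 3B3-3l highest in serum and lowest in 2i, and the log2 changes of -0.85 ± 0.15 in J1 and -3.50 ± 0.17 in 3B3-3l gave a difference of -2.65 ± 0.23 (SE, edgeR adjusted p = 5.24e-07). Loxl2, a lysyl oxidase of collagen crosslinking, changed by -0.76 ± 0.12 in J1 and -3.60 ± 0.14 in 3B3-3l. Ndufa4l2, a mitochondrial protein that lowers complex I activity, was at 0.48 ± 0.19 in J1, where its media overlapped, and changed by -2.70 ± 0.23 in 3B3-3l.

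**Figure D3:**
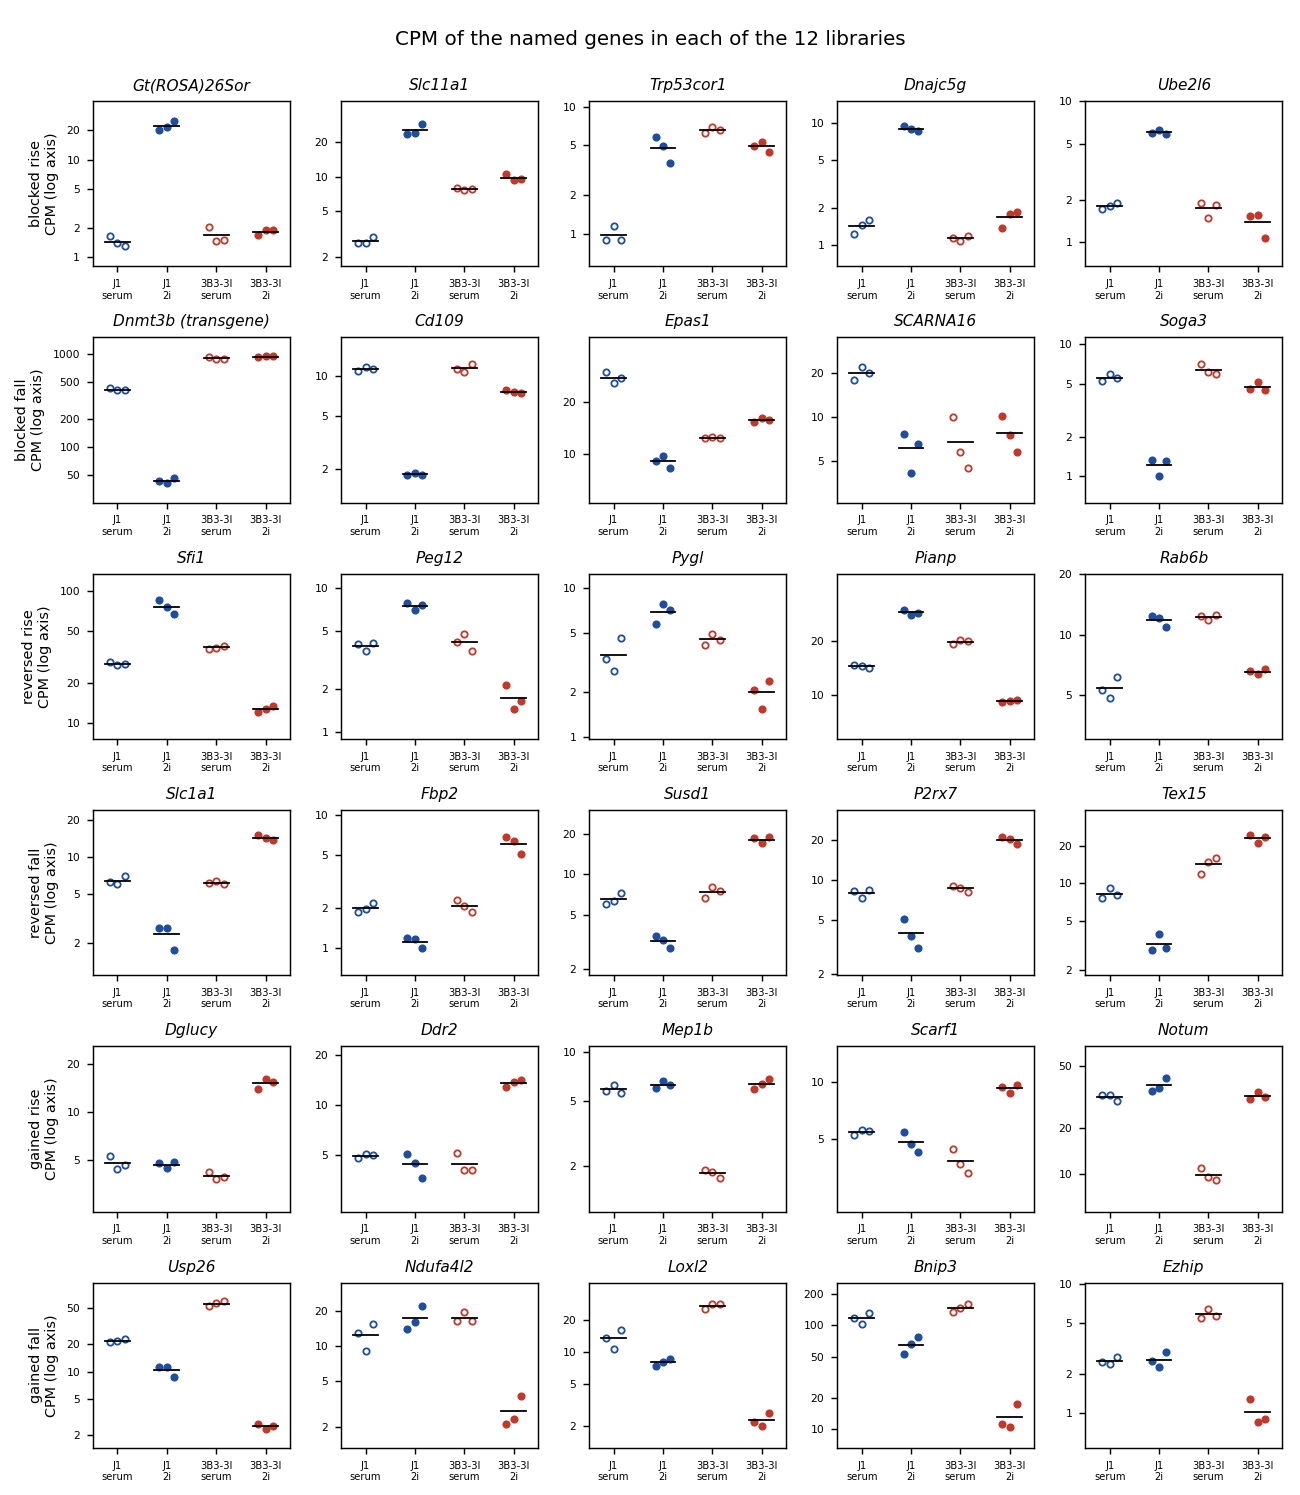
Each panel shows 1 named gene of the blocked, reversed and gained classes, 1 row per class and direction, with the CPM of each library as a point on a log axis and the mean of each group as a line. J1 is blue and 3B3-3l red, with open points for serum and filled points for 2i, and for Sfi1 the J1 libraries in 2i are the highest and the 3B3-3l libraries in 2i the lowest.

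Reduced and enlarged responses kept their direction. Otx2, a transcription factor of the formative state, was at 41.2, 40.8 and 39.4 CPM in J1 in serum and 2.55, 3.05 and 2.8 CPM in 2i and at 40.8, 45.7 and 49.8 CPM in 3B3-3l in serum and 13.4, 13.5 and 13.9 CPM in 2i. It fell in both lines from levels that overlapped in serum, but stayed higher in 3B3-3l in 2i, and the difference was 2.11 ± 0.11 (SE, edgeR adjusted p = 5.91e-09). Nkx1-2, a homeobox gene, rose from under 1 CPM in every serum library to 45.9, 51.1 and 47.9 CPM in J1 and to 10.4, 10.6 and 12.7 CPM in 3B3-3l, a difference of -1.58 ± 0.33 (SE, edgeR adjusted p = 0.00162). Syngr4, a synaptogyrin family member, rose by 2.5 ± 0.14 in J1 and 0.91 ± 0.15 in 3B3-3l. Zscan4f, of the gene family expressed in 2-cell embryos, was at 6.5, 8.63 and 6.67 CPM in J1 in serum and 0.251, 0.78 and 0.537 CPM in 2i and at 8.82, 9.37 and 9.81 CPM in 3B3-3l in serum and 4.09, 4.93 and 4.62 CPM in 2i. It fell in both lines and less in 3B3-3l, with a difference of 2.76 ± 0.28 (SE, edgeR adjusted p = 2.62e-06), but its copies are nearly identical and reads may have been split among them.

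Ly6a, which encodes the surface antigen Sca-1, was near 0.969 CPM in serum in J1 and 0.563 in 3B3-3l on average, and at 9.82, 8.88 and 11.7 CPM in J1 and 35.8, 41.1 and 35.9 CPM in 3B3-3l in 2i. It rose in both lines and more in 3B3-3l, with a difference of 2.67 ± 0.25 (SE, edgeR adjusted p = 1.17e-06). Dmgdh, dimethylglycine dehydrogenase of mitochondrial choline breakdown, was at 0.502, 0.771 and 0.596 CPM in J1 in serum and 15, 14.9 and 13.7 CPM in 2i and at 0.653, 0.478 and 0.592 CPM in 3B3-3l in serum and 82.7, 81.7 and 79 CPM in 2i. Its difference of 2.60 ± 0.21 (SE, edgeR adjusted p = 3.14e-07) was 2.01 with estimated transcript lengths as offsets. Dll1, a Notch ligand, went from 10.9, 7.95 and 11 CPM in serum to 0.319, 0.207 and 0.244 CPM in J1 in 2i, and from 34.4, 34.8 and 31.1 CPM in serum to 0.024, 0.0927 and 0.0516 CPM in 3B3-3l in 2i. Its difference of -3.87 ± 0.54 rests on 7 counts over the 3 3B3-3l libraries in 2i, and was -2.61 with length offsets. Without the second of these libraries it was -4.46. Sel1l3 rests on 2 counts there, so no fold change is given. Without the second or the third J1 library in 2i, or the second 3B3-3l library in 2i, its adjusted p from edgeR was 0.0785, 0.217 and 0.077.

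The lines could differ in serum, in 2i or in both. The difference of the 2i effects is also the line difference in 2i minus that in serum, so which is larger in size describes where the lines part. Over all 17885 genes tested, the lines were called apart for 8208 in 2i and for 6916 in serum. The share of all genes with the larger line difference in 2i was not counted. Of the 1470 genes with a 2-fold difference, 1042 (70.9%) had the larger line difference in 2i, 403 of the 530 positive and 639 of the 940 negative ones. For blocked falls it was 101 of 126, with a median line difference, 3B3-3l minus J1, of -0.40 in serum and 1.25 in 2i. For reversed rises it was 54 of 78, with medians of 0.48 and -1.37, and for gained falls 124 of 172, with 0.42 and -1.23. Reduced rises were the exception, with 24 of 49. The medians had opposite signs in the media, which the construction of the difference favours.

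**Figure D4:**
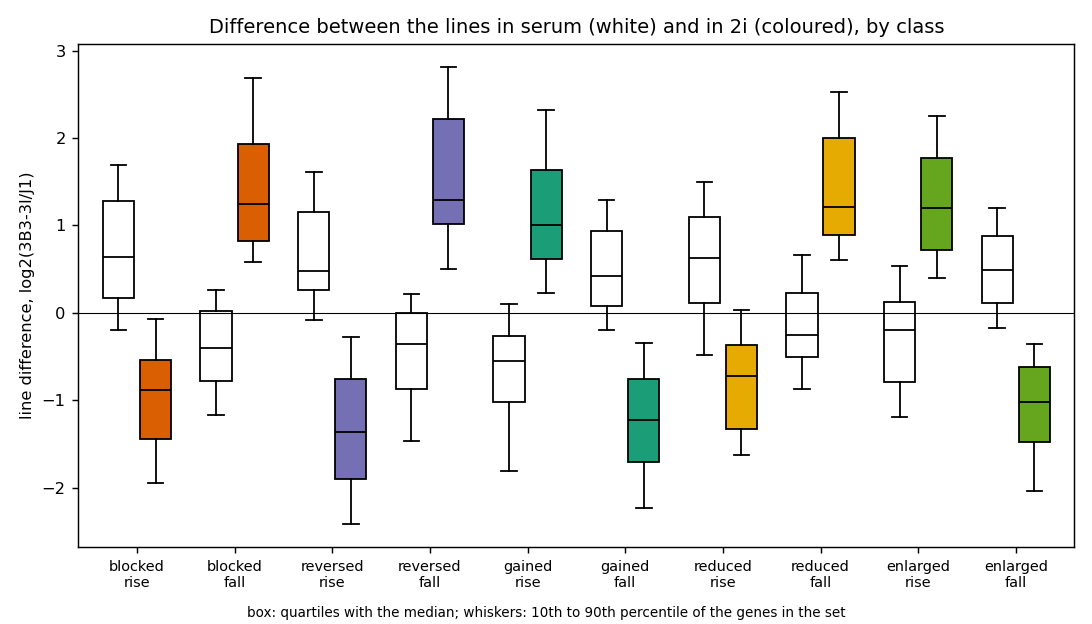
Boxes give, for the genes of each class, the log2 difference between the lines, 3B3-3l over J1, in serum in white and in 2i in colour, with quartiles, the median and whiskers from the 10th to the 90th percentile. In blocked falls the median is -0.40 in serum and 1.25 in 2i.

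Gene lists from textbook roles were read against the 34.7% of all genes called and the median of -0.03. Among 33 tested germline genes known to be silenced by DNA methylation, 5 were called higher and 14 lower, with a median difference of -0.27. Off chromosome 6 it was 5 and 10 of 29. Tex15, described above, was among the 5, and the meiotic cohesin gene Smc1b, at -1.99 ± 0.22 (SE, edgeR adjusted p = 6.40e-06), among the 14. Meiob, a meiotic single-strand DNA binding gene, was at 1.65, 1.45 and 1.68 CPM in J1 in serum and 0.159, 0.184 and 0.0976 CPM in 2i and at 1.54, 1.29 and 2.19 CPM in 3B3-3l in serum, and no count was found in the 3 3B3-3l libraries in 2i, where 3 counts would be 0.0695 to 0.0774 CPM. Of 13 genes of the X-linked Rhox and Xlr clusters 3 were higher and 5 lower, with a median of -0.85. Of the Rhox homeobox genes, expressed in the germ line and placenta, Rhox10 differed by 2.30 ± 0.49, Rhox1 by -1.08 ± 0.31 and Rhox6 by -0.98 ± 0.23.

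Imprinted genes, whose parental copies differ in methylation, were called lower more often than higher, 23 against 2 of 41, with a median of -0.52. The 34 off chromosome 6 gave 17 lower and 2 higher and a median of -0.43. Phlda2, a growth-limiting gene of the placenta, was at 66, 69.7 and 63.6 CPM in J1 in serum and 23.3, 19.6 and 22.1 CPM in 2i and at 48.2, 43.5 and 41.4 CPM in 3B3-3l in serum and 2.57, 2.25 and 2.24 CPM in 2i. All groups were apart, and the 3B3-3l libraries in 2i were far below the rest, with a difference of -2.62 ± 0.12 (SE, edgeR adjusted p = 1.66e-09). Dio3, a deiodinase, differed by 2.60 ± 0.23. Sgce, on chromosome 6, differed by -1.96 ± 0.14, or -1.55 with the chromosome level taken out. Of 18 genes that write or remove DNA methylation 5 were higher and 3 lower. Off chromosome 6 it was 5 and 1 of 16. The higher ones included the transgene-encoded Dnmt3b and Dnmt3l. The lower ones included Dnmt3a, which 3B3-3l lacks on both alleles, at -0.77. With length offsets Dnmt3a was at -0.14 and not called. Tet3, a methylcytosine dioxygenase on chromosome 6, was at 13.3, 12.4 and 13.3 CPM in J1 in serum and 19.6, 19.6 and 18.4 CPM in 2i and at 14.2, 11.9 and 14 CPM in 3B3-3l in serum and 6.66, 6.23 and 6.7 CPM in 2i, a difference of -1.59 ± 0.11 (SE, edgeR adjusted p = 5.31e-08), or -1.18 with the chromosome level taken out.

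The 2-cell-like genes had the most positive median of the lists, 2.23, with 7 of 11 higher. None was lower by edgeR or DESeq2, and the count at an unadjusted p under 0.05 was 0. Zscan4c changed by -3.73 ± 0.15 in J1 and -0.80 ± 0.11 in 3B3-3l. Pramel6 and Pramel7, of a family expressed in early embryos, differed by 2.71 ± 0.36 and 4.47 ± 0.58, the latter 3.86 with length offsets. The members of these families are near copies of one another, so their values are not separate observations and remain uncertain.

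Genes of naive pluripotency were called higher in 10 of 16 and lower in 3, with a median of 0.35. Off chromosome 6 it was 10 and 1 of 14, with a median of 0.42. None of the 16 had a called difference of at least 2-fold, against 8.22% of all genes tested. Dppa3, a maternal factor that protects from loss of methylation at imprinted regions, was at 36.5, 39.4 and 41 CPM in J1 in serum and 8.09, 7.96 and 8.51 CPM in 2i and at 45.5, 45.6 and 43.4 CPM in 3B3-3l in serum and 4.11, 5.35 and 4.98 CPM in 2i. The lines were apart in both media, 3B3-3l being higher in serum and lower in 2i, which made its difference -0.97 ± 0.11 (SE, edgeR adjusted p = 9.31e-06), one of the 3 lower calls, and -0.56 with the level of its chromosome, 6, taken out. Tdh, threonine dehydrogenase of mouse embryonic stem cells, differed by 0.82 ± 0.079, the transcription factor Klf2 by 0.63 ± 0.094 and Zfp42, known as Rex1, by 0.75 ± 0.083. Klf2 and Zfp42 lie on chromosome 8, and were at 0.43 and 0.55 with the chromosome level taken out. Among genes of the formative and primed state 11 of 15 were lower and 3 higher, with a median of -0.64. Otx2 was one of the 3 higher ones, while Sox3 differed by -1.34 ± 0.30. Of 12 LIF and STAT3 response genes 4 were higher and 2 lower, with a median of 0.12, and the homeobox gene Gbx2 differed by 0.66 ± 0.10, the receptor genes Il6st and Lifr by 0.48 ± 0.091 and 0.38 ± 0.11, and Socs3, the feedback inhibitor, by -0.52 ± 0.083. The 10 mESC markers gave 5 higher and 2 lower. No LIF and STAT3 response gene and no mESC marker had a called difference of at least 2-fold.

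Among the lineage lists, trophoblast and primitive endoderm genes were called lower more often than higher. Of 14 trophoblast and simple epithelium genes 8 were lower, with a median of -0.64, and 0 were higher by edgeR, by DESeq2 and at an unadjusted p under 0.05. Ascl2, an imprinted trophoblast factor, differed by -1.70 ± 0.23 and the keratins Krt19 and Krt18 by -1.54 ± 0.20 and -0.998 ± 0.14. Of 17 primitive endoderm genes 1 was higher and 7 were lower, with a median of -0.43. The transcription factor Gata6 was at 0.573, 0.241 and 0.244 CPM in J1 in serum and 0.159, 0.275 and 0.122 CPM in 2i and at 1.02, 1.03 and 1.13 CPM in 3B3-3l in serum and 0.0962, 0.139 and 0.129 CPM in 2i, a difference of -2.17 ± 0.59 (SE, edgeR adjusted p = 0.00927). Its media overlapped in J1, and every level in 2i rested on few reads. The laminin gene Lamb1 was the 1 higher, at 0.68 ± 0.081. For 37 developmental factors bound by Polycomb in stem cells the calls were 6 higher and 7 lower, a share of 35.1% close to that of all genes. A called difference of at least 2-fold was found for 11 of the 37, against 8.22% of all genes tested. Tbx4 differed by 2.72 ± 0.41. Gata2, on chromosome 6, differed by -2.48 ± 0.22, or -2.07 with the chromosome level taken out. Of 17 Hox genes 3 were lower by edgeR and 2 by DESeq2. The count of higher ones was 0 by both, and 1 at an unadjusted p under 0.05. Primitive streak genes gave 2 higher, or 4 without the third J1 library in 2i, and 3 lower of 14. The T-box factors T, known as Brachyury, and Eomes differed by -1.48 ± 0.28 and -0.91 ± 0.12, and Nodal and its antagonist Lefty1 by 0.65 ± 0.072 and 0.40 ± 0.092. T was a reduced rise, with a log2 change that was positive in both lines and smaller in 3B3-3l. Of the 6 neural markers tested 3 were higher, Tubb3 by 0.61 ± 0.10, and 0 lower by edgeR, by DESeq2 and at an unadjusted p under 0.05. Tubb3, on chromosome 8, was at 0.42 with the chromosome level taken out.

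The signalling and stress lists were mixed apart from p53. Of 15 p53 targets 9 were higher and 1 lower, with a median of 0.31, and none had a called difference of at least 2-fold. Mdm2, the ubiquitin ligase of p53, was at 104, 104 and 106 CPM in J1 in serum and 65.4, 66 and 64.6 CPM in 2i and at 91.4, 91 and 90.7 CPM in 3B3-3l in serum and 86.6, 83.4 and 80.3 CPM in 2i. J1 fell more than 3B3-3l, with no overlap between groups, and the difference was 0.55 ± 0.060 (SE, edgeR adjusted p = 5.78e-06). Phlda3 and Sesn2 differed by 0.67 ± 0.11 and 0.68 ± 0.12, and Pmaip1, the proapoptotic gene Noxa, by -0.96 ± 0.13. Trp53cor1, the lincRNA-p21 described above, was not in this list and differed by -2.71 ± 0.23. MEK/ERK response genes gave 7 higher and 5 lower of 19. The immediate early gene Egr1 was at 106, 89.4 and 102 CPM in J1 in serum and 6.68, 12.8 and 12.7 CPM in 2i and at 50.1, 47.9 and 49.7 CPM in 3B3-3l in serum and 0.649, 0.95 and 2.91 CPM in 2i. It fell in both lines and further in 3B3-3l, with no overlap between groups, and its difference of -1.84 ± 0.40 (SE, edgeR adjusted p = 0.00227) was -2.72 without the third 3B3-3l library in 2i, which stood above the other 2. Phlda1 and Myc differed by 0.97 ± 0.20 and 0.96 ± 0.15. Of 16 Wnt response genes 3 were higher and 4 lower, with a median of -0.33. Brachyury, the reduced rise given above, was one of the lower ones. Lef1, the nuclear partner of beta-catenin, at 1.21 ± 0.15, and the ligand Bmp4, at 1.16 ± 0.10, were among the higher ones. Sterol synthesis gave 3 higher and 7 lower of 24, the first count falling to 0 without the first or the third J1 serum library or the second 3B3-3l library in 2i, with Cyp51 at -0.52 ± 0.067. No sterol gene had a called difference of at least 2-fold. Interferon response and antigen presentation genes gave 5 higher and 7 lower of 20. Bst2, the antiviral protein tetherin, differed by -1.45 ± 0.10 and the class I genes H2-K1 and B2m by -1.36 ± 0.10 and -0.83 ± 0.084. Bst2, on chromosome 8, was at -1.64 with the chromosome level taken out. ATF4 target genes gave 5 higher and 4 lower of 19, the first count ranging from 1 to 5 as single libraries were left out, with Ddit4 at -1.55 ± 0.14 and Sesn2 as given above.

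**Figure D5:**
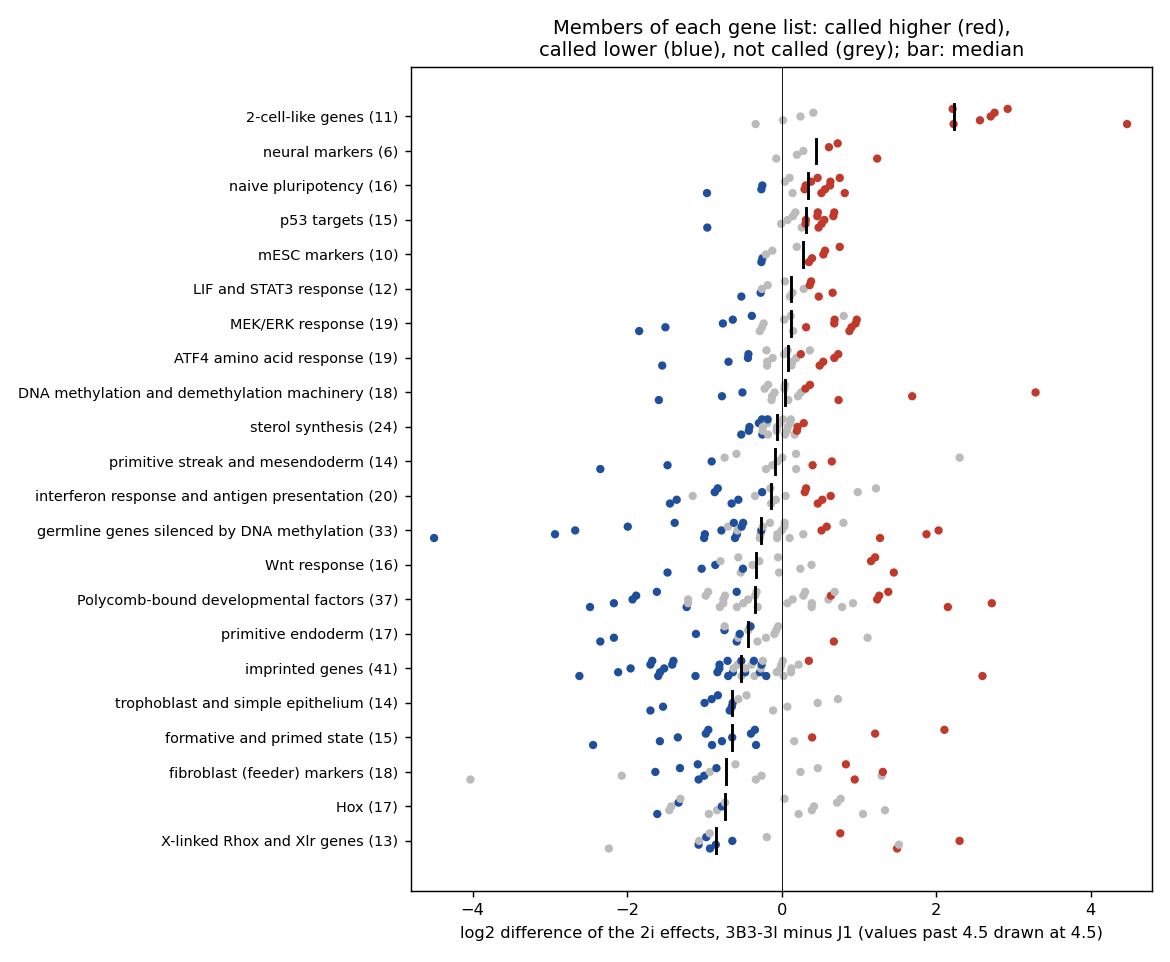
Each point is a gene of a list, placed by its log2 difference of the 2i effects, 3B3-3l minus J1, with values past 4.5 drawn at 4.5. Genes called higher are red, those called lower blue and the others grey, the bar is the median of the list, and the number after each name is that of genes tested. The 2-cell-like genes have the most positive median, 2.23.

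The promoters of the classes were counted for CpG in RefSeq windows on GRCm38.p6, each from 250 bases before to 50 bases after a start. As for Slc11a1 and Dnajc5g above, that start was not always the start of the gene span. Where a symbol had several windows, the one with the most CpG was taken. A window was found for 12159 of the tested genes, with a median of 21 CpG. The 3537 genes with a window and a 2-fold 2i effect in either line already had a lower median, 16. Against that, the medians were 12 for blocked rises (73 windows), 15 for reversed rises (51), 8 for gained rises (39), 8 for blocked falls (65) and 8 for reversed falls (29). Enlarged falls, with 255 windows and a median of 19, and reduced falls, with 78 and 16.5, stood closer to all genes. Gained falls had a median of 14.5 over 122 windows, reduced rises of 13 over 27 and enlarged rises of 10 over 40. Genes without a symbol have no window, and weakly expressed genes are common in the classes with low counts of CpG, as given above, so these medians describe the windows and were not tested.

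The E-box CACGTG, which is its own reverse complement, was present in 10.1% of all windows. By class it was found in 7 of 29 windows of reversed falls (24.1%), in 5 of 27 of reduced rises (18.5%) and in 7 of 39 of gained rises (17.9%). Reduced falls held it in 10.3%, and the shares in the 6 other sets ranged from 5.0% in enlarged rises to 8.22% in blocked rises. In the germline list it was present in 13 of 29 windows, or 44.8%. The letters TCCCGC, searched on both strands, were found in 36.3% of all windows, and by class in 15.4% of those of blocked falls at the lowest and in 51.0% of those of reversed rises at the highest. A match of letters describes a window and is not a binding site.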

How the data were processed

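RNA-seq of poly(A) RNA was done on 12 libraries, 3 for each of 4 groups. The deposited values are estimated counts, which the authors made with Sailfish 0.9.2 (stranded setting) and summed to genes with tximport. They were rounded here. The deposited transcript TPM and lengths, also from Sailfish, entered only the length offsets. The methods name RefSeq models while the identifiers are Ensembl, and symbols and positions are from GRCm38.p6 tables. Genes passing filterByExpr were fitted in edgeR 4.0.16 (R 4.3.3) by the quasi-likelihood method with TMM scaling over all 12 libraries (biological coefficient of variation 6.49%), and the difference of the 2i effects was tested with Benjamini-Hochberg adjustment. SE is the log2 value divided by the root of F. Members and lists were chosen with earlier results of these data known. Genes were named by rule as the largest differences at 5 CPM or more per class (5 for blocked, reversed and gained sets, 2 for the others), leaving out predicted names and groups at 0 counts, and up to 4 per list at 1 CPM or more, with some of these not reported here. SCARNA16 and Dll1, Sel1l3 and Zscan4f came through this rule despite the limits given. Tested on simulated data for the difference of 2i effects over 17663 genes, the fit recovered 86 of 100 changes of 1 and 98 of 100 of 2 on the log2 scale, with 16 false among 200 calls. Changes were placed only in genes with a mean over 1 CPM, so recovery for weaker genes was not measured. Replicate numbers did not pair libraries. Alternatives were DESeq2 1.42.0, its size factors, other filters, length offsets, other class limits, a replicate block, leaving out each library, and, added after the data had been seen, 2 treatments of chromosomes. Windows were matched by symbol to RefSeq. P-values measure the spread between these replicates of 1 line each.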

Additional observations from a re-analysis of the deposited data

Results flagged for a closer look

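These results stand here because the 2 lines differed in the same contrast, 2i against serum, by the edgeR test of that difference itself. In all, 6200 genes met it, 2923 with a more positive 2i effect in 3B3-3l and 3277 with a more negative one. By class these included 114 blocked rises, 126 blocked falls, 78 reversed rises, 44 reversed falls, 71 gained rises, 172 gained falls, 49 reduced rises, 118 reduced falls, 67 enlarged rises and 361 enlarged falls. The clearest form is a response with opposite signs. Among the named genes that rose in J1 and fell in 3B3-3l the log2 difference was -2.99 ± 0.11 (SE) for Sfi1, -2.19 ± 0.19 for Peg12, -2.15 ± 0.26 for Pygl, -2.10 ± 0.078 for Pianp and -2.03 ± 0.12 for Rab6b. Among those that fell in J1 and rose in 3B3-3l it was 2.65 ± 0.16 for Slc1a1, 2.40 ± 0.21 for Fbp2, 2.31 ± 0.14 for Susd1, 2.19 ± 0.17 for P2rx7 and 2.03 ± 0.17 for Tex15. Pianp lies on chromosome 6 and Tex15 on chromosome 8, and with the chromosome level taken out they were at -1.69 and 1.83. In each of these 10 genes all 3 libraries of a line in 2i lay on one side of its 3 in serum. Their selection, which required a called 2i effect in both lines, favours this, so it adds no support. Groups of 3 libraries were not examined for single outlying samples.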

How the results depend on the processing

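No named gene changed sign under any alternative. Of 2288 values for 116 genes under 20 alternatives, 2207 kept their direction and side of the threshold, 77 no longer passed and 4 newly passed. The calls of H19, Tlr3, Hoxc4, Chac1, Col6a2, Sc5d, Fgf5 and Xlr3a were lost under 3 or more alternatives, so these list members are not described, and Dnmt3a lost its call (-0.14) with length offsets. Hoxb13 was called higher under 4 alternatives. The number of genes with a different 2i effect fell from 6200 to 1470 when a 2-fold difference was also required. It was 5225 to 6857 as single libraries were left out, 2183 to 3384 of them positive and 2830 to 3473 negative. Same-numbered libraries did not deviate together (correlations of -0.12 to 0.06), and with a replicate block 5623 genes were called (2609 positive and 3014 negative). Without the genes of chromosomes 6 and 8, 5180 of 16265 were called.

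The class sizes rest on their limits. With at least 10 counts in every library, which tests fewer genes, blocked falls were 71, gained rises 42, reduced falls 66 and enlarged rises 43, and 61.4% of class members kept their class against 80.3% to 98.6% under the other refits. With a remaining effect of up to 0.5 of the larger one, blocked falls were 211, gained rises 126, gained falls 397, reduced rises 19, reduced falls 50, enlarged rises 28 and enlarged falls 155. With no minimum difference, reduced rises were 662, reduced falls 539, enlarged rises 708 and enlarged falls 983. Against genes with a 2-fold 2i effect, the background median of CpG was 16. Among the lists, 10 counts in every library left 3 higher calls in 2-cell-like genes, 3 in germline genes, and 3 higher and 4 lower in Polycomb-bound factors, and length offsets left 3 lower calls in Rhox and Xlr genes. Without the third 3B3-3l library in serum 4 LIF and STAT3 genes were lower. Depth limits the genes of few counts, and the floor of 3 counts, 0.0684 to 0.0813 CPM across libraries, covers counting error only.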

Other observations

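A set of 42 hypoxia-inducible genes was written down after Bnip3, Loxl2 and Ndufa4l2 had been seen among the gained falls, so it was chosen after its values were known and is described without a test. By edgeR 34 of the 42 were called lower in the difference, against 18.3% of all genes tested. The number higher was 0 by edgeR, by DESeq2 and at an unadjusted p under 0.05, but 1 with the chromosome level taken out and 1 with length offsets. The median difference was -0.74, with a median 2i effect of -0.14 in J1 and -0.90 in 3B3-3l. Off chromosome 6 it was 29 of 36, with a median of -0.67.

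Egln3, a prolyl hydroxylase that marks HIF for breakdown and is itself a HIF target, was at 45.5, 36.4 and 51.6 CPM in J1 in serum and 12.7, 15.6 and 16.9 CPM in 2i and at 47, 60.9 and 62.4 CPM in 3B3-3l in serum and 3.32, 2.83 and 4.62 CPM in 2i. It fell in both lines and further in 3B3-3l, with a difference of -2.43 ± 0.23 (SE, edgeR adjusted p = 1.65e-06). Slc2a1, the glucose transporter GLUT1, was at 647, 557 and 703 CPM in J1 in serum and 392.5, 405 and 483 CPM in 2i and at 966, 1011 and 977 CPM in 3B3-3l in serum and 201, 211 and 234 CPM in 2i. The 3B3-3l libraries were the highest in serum and the lowest in 2i, and the difference was -1.62 ± 0.12 (SE, edgeR adjusted p = 1.75e-07). Vegfa, the vascular growth factor, changed by 1.05 ± 0.064 in J1 and -0.27 ± 0.064 in 3B3-3l. The glycolytic genes Pfkfb3, Pgk1 and Ldha differed by -1.92 ± 0.17, -0.60 ± 0.10 and -0.45 ± 0.11. Members with no called difference included Eno1 (-0.13 ± 0.10) and Bnip3l (-0.13 ± 0.084).

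The letters ACGTG, on either strand, were in 21 of the 34 windows of this set (61.8%), in 24.9% of all windows and in 20 of the 29 windows of the germline list (69.0%), so they are not particular to this set. Epas1, which encodes HIF-2α, had the opposite difference, as a blocked fall. Oxygen, cell density and HIF protein were not measured, and their part was not tested.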
